A study of Homo sapiens with 6 samples.

Results

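The genes described here are 41 E2F factors and parts of the DNA replication machinery, of 19040 genes measured on expression arrays of AN3-CA cells. AN3-CA is a human endometrial cancer line that is known to carry activating FGFR2 mutations. The genes were taken by name, and each was represented by the probe set that carried exactly its symbol and had the highest mean log2 intensity over the 6 arrays. All 41 had such a probe set, and the rule used symbols and mean level, not differences between groups. The study held 3 groups of 2 cultures, which the labels call biological replicates. The first group received 300 nM AZD4547, which inhibits FGF receptor tyrosine kinases, together with 10 ng/mL acidic fibroblast growth factor (aFGF). The second received 10 ng/mL aFGF with DMSO, the solvent, and the third received DMSO alone. Cells grew for 24 h in dishes and then spent 18 h in serum-free medium with the treatment, so every group lacked serum. No culture had AZD4547 without aFGF, all arrays came from 1 cell line, and 1 time was measured. With 2 arrays a group, p-values measure the spread between these cultures, and the number of arrays limits the precision. The fit also drew each gene's spread toward that of genes of similar intensity, which supplied a median 8.24 of 11.24 degrees of freedom.

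E2F factors are transcription factors that bind the promoters of genes needed for DNA synthesis. In quiescent cells they are held by RB and its relatives, and cyclin-dependent kinases release them by phosphorylating RB late in G1. Replication then runs in fixed steps: the origin recognition complex with CDC6 and CDT1 loads the MCM helicase, the kinases CDC7 and CDK turn it on with CDC45 and GINS, and primase, polymerases, the PCNA clamp and its loader copy the DNA. Growth factors act upstream by raising the cyclins of G1, and many transcripts of this machinery are most abundant around the G1/S boundary.

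Across probe sets, cultures of a group correlated at r = 0.9973 with AZD4547 and aFGF, 0.9973 with aFGF and 0.9966 in DMSO, which describes the arrays only. Among the brighter genes the SD of the log2 difference between cultures was 0.123, 0.110 and 0.165 in the same order, so the DMSO cultures differed most. Genes known to respond to FGF moved between the groups. The immediate early gene EGR1 was 5.72 lower on the log2 scale with AZD4547 and aFGF than with aFGF, and 3.13 higher with aFGF than in DMSO. PHLDA1 (-5.04), MYC (-2.30), SPRY4 (-0.91) and DUSP6 (-0.41) were also lower with AZD4547 and aFGF than with aFGF, and FGFR2 was 1.63 higher. Of the cell type markers, 5 of 7 of the Müllerian list and 2 of 3 of the mesenchymal list lay above the median probe set. Only 2 of 7 epithelial markers did, and EPCAM was near the bottom of the scale, with mean log2 intensities of 0.56 with AZD4547 and aFGF, 0.41 with aFGF and 0.42 in DMSO. Of the fibroblast list 1 of 5 lay above it, of the endothelial list 1 of 4, and of the leukocyte list 0 of 5. The summed linear intensity of the Müllerian list was 291 and 263 with AZD4547 and aFGF, 201 and 212 with aFGF, and 260 and 243 in DMSO. That of the mesenchymal list was 4510 and 4550, 5130 and 5180, and 4850 and 4760 in the same order, and that of the epithelial list 42.4 and 41, 48.8 and 51.9, and 46.8 and 44.5. The fibroblast list summed to 911 and 887 with AZD4547 and aFGF, 877 and 873 with aFGF, and 721 and 818 in DMSO. These 4 sums moved with the groups, and their part in the results was not tested. A linear sum follows its brightest gene, which was VIM (mean log2 12.18) in the mesenchymal list and COL1A2 (9.7) in the fibroblast list. CDH2 and ZEB1 were lowest with aFGF, where the mesenchymal sum was highest. COL1A1 and PDGFRB were highest in DMSO, where the fibroblast sum was lowest. The endothelial list summed to between 17.2 and 20.1 on every array and the leukocyte list to between 11.1 and 13.0.

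The promoters of many of these genes hold at least 1 of 4 searched words to which E2F factors are known to bind. RefSeq windows from 250 bases before to 50 bases after a start (GRCh38.p14) were found for 36 of the 41 genes, in 47 windows. No window was at hand for E2F8, MCM5, CCNE2, MCM4 or GINS4. The words searched were TTTGGCGC, TTTCCCGC, TTTCGCGC and TTTGCCGC on both strands, and matches may overlap. At least 1 word stood in 22 of the 36 genes (61.1%), against 5.52% of measured genes with a window. It stood in 11 of 17 genes called higher with AZD4547 and aFGF than with aFGF, in 9 of 17 not called and in 2 of 2 called lower. CCAAT stood in 61.1% of the 36 genes and in 42.4% of measured genes, and the CHR words TTTGAA and TTCGAA in 11.1% and 17.6%. A match is a description of letters, and the genes were named for their known roles, several as E2F targets. Other forms of the E2F site were not searched, so a gene without a match may still hold such a site. The 6 windows below belong to 3 genes called higher with AZD4547 and aFGF (E2F1, MCM3, MCM6), the 2 called lower (E2F3, CDC25A) and 1 not called (MCM7). They run 5′ to 3′ in the direction of the gene, with E2F words in capitals. They lie at chr20:33686336-33686635, chr6:52284693-52284992, chr2:135876394-135876693, chr6:20401629-20401928, chr3:48188368-48188667 and chr7:100101348-100101647, on the minus strand except that of E2F3. MCM7 had 3 windows and E2F3 had 2, and the window shown is in each case the 1 that holds E2F words.
E2F1: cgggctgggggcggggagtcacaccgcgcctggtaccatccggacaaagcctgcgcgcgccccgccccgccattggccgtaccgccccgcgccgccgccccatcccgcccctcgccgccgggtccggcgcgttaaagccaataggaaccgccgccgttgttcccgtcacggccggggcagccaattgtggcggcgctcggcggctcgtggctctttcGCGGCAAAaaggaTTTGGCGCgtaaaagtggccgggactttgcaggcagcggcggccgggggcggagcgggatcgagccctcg
MCM3: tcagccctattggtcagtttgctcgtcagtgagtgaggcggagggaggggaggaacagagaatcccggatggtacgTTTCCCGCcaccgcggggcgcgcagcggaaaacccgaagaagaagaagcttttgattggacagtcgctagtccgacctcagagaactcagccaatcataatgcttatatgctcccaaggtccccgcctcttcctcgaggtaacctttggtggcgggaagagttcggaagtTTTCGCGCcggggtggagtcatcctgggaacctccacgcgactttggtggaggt
MCM6: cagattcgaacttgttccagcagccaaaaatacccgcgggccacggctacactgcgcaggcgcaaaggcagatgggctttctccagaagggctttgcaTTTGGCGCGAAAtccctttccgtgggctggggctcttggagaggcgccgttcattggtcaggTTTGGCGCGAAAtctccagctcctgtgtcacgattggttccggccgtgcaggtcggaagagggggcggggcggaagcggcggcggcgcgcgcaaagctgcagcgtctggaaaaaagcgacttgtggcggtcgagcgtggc
E2F3: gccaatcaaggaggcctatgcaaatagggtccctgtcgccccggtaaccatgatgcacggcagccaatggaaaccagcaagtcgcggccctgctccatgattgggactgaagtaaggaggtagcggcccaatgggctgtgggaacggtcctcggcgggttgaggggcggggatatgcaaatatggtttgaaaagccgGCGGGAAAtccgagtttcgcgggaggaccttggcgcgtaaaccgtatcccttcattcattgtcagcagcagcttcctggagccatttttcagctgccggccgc
CDC25A: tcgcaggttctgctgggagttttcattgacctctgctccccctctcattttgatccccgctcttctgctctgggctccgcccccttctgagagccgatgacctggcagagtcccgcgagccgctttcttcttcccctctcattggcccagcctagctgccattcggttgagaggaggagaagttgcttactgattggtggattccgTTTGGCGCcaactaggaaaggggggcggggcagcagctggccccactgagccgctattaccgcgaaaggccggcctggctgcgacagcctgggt
MCM7: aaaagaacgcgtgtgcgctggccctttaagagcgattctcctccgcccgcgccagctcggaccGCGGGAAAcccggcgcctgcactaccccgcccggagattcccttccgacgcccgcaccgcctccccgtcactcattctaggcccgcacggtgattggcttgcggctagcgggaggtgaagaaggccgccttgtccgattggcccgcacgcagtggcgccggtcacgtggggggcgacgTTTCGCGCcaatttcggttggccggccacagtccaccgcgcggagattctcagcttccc
Relative to the start, the words of E2F1 began at -33 and -20, those of MCM3 at -174 and -4, that of E2F3 at -53, that of CDC25A at -44 and those of MCM7 at -187 and -9. MCM6 held 4 words as overlapping pairs on opposite strands. The searched E2F words were therefore found in this window in genes of every direction of change. E2F7, RFC4 and PRIM1, which were called higher, held none of these words in theirs, which does not show that they lack E2F sites.

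The comparison of AZD4547 with aFGF against aFGF asks what receptor inhibition does to these transcripts in stimulated cells. Most of the called genes were higher with the inhibitor. By limma with Benjamini-Hochberg adjustment over all 19040 genes, 19 of 41 were called higher (46.3%) and 2 lower at an adjusted p under 0.05, and 20 were not called. Of all genes, 25.7% were called, 15.6% higher and 10.1% lower. All 41 lay above the median probe set, and of the 10467 genes that do, 43.5% were called, 26.5% higher and 17% lower. The changes were small: the largest was 0.68 on the log2 scale, a 1.61-fold difference, and the median of the 41 was 0.20, against -0.02 over all genes and 0.04 over the brighter ones. On 30 genes both AZD4547 cultures exceeded both aFGF cultures, and on 4 both lay below, where 29.7% and 30.8% of all genes did so. In bulk RNA, fewer cells of a type, such as cells in S phase, and less RNA per cell cannot be told apart.

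The aFGF comparison with DMSO asks what the growth factor did on its own, and it gave mostly lower values. Of the 41 genes, 11 were called lower (26.8%) and 1 higher, with 15.6% of all genes called, 5.92% higher and 9.72% lower. Of the brighter genes 27% were called, 10.2% higher and 16.8% lower. The median change was -0.17, against -0.01 over all genes and -0.03 over the brighter ones. Both aFGF cultures lay below both DMSO cultures on 27 genes and above them on 4, where 27.8% and 22.7% of all genes did so. This comparison and the one before share the aFGF cultures, so an aFGF culture that is low on a gene lowers the aFGF change and raises the AZD4547 change together. Each comparison's own values are given side by side below.

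Calls changed when single arrays were left out. Leaving out 1 array leaves 1 culture in its group, which lowers the precision, so a lost call need not mean a changed difference. Without 1 array, the log2 difference of CHAF1B against aFGF stayed at 0.283 to 0.292 and that of E2F2 at 0.289 to 0.34. That of MCM4 moved more, at 0.335 to 0.539. Of the 21 genes called against aFGF, 9 stayed called whichever 1 of the 6 arrays was left out: E2F1, E2F7, GMNN, MCM2, MCM3, CDC7, PRIM1, PCNA and RFC4. Without AZD4547 replicate 1 or 2 the count was 12 or 13, and without aFGF replicate 1 or 2 it was 10 or 11. Of the 12 genes called in aFGF over DMSO, E2F7, MCM3 and RFC4 stayed called whichever array was left out. Without aFGF replicate 1 or 2 that count was 3 or 4, and without AZD4547 replicate 1 or 2 it was 8, since those arrays enter the shared spread. With no intensity trend in the variance, 13 of the 41 were called against aFGF and 3 in aFGF over DMSO. Of all 19040 genes, 3706 and 1489 were called in that setting. In aFGF over DMSO the 41 genes were then called about as often as all genes. With dim genes left out before the fit, 23 of the 41 were called against aFGF (47.9% of the genes kept), 18 in aFGF over DMSO (32.1%) and 1 in AZD4547 with aFGF over DMSO (12%).

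**Figure D1:**
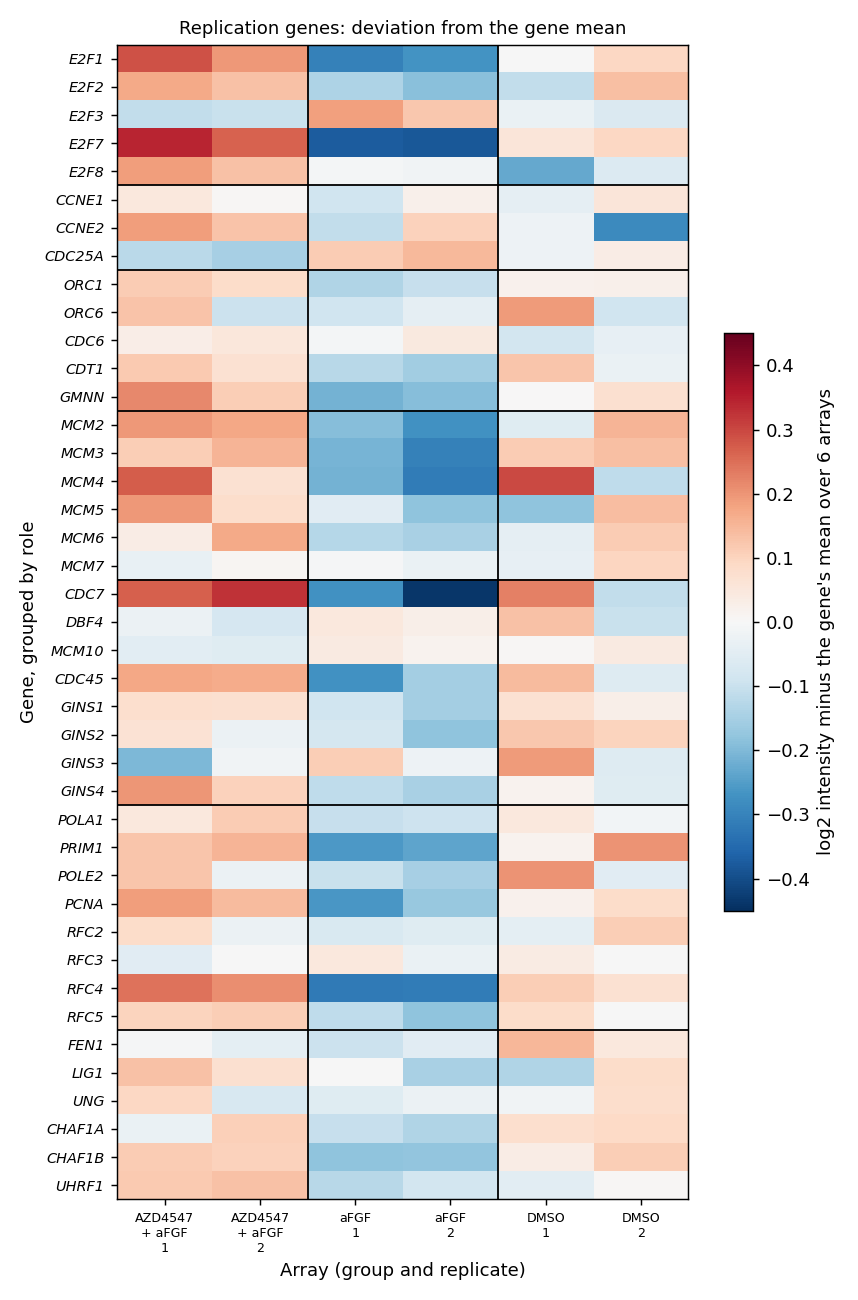
Log2 intensity of the 41 genes on each of the 6 arrays minus the gene's mean over them (colour, red above and blue below), with genes in rows by role and arrays in columns from AZD4547 with aFGF to DMSO. Both aFGF arrays are blue for most genes and the AZD4547 arrays red, with E2F3, CDC25A, DBF4 and MCM10 the other way round.

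Among the 5 E2F factors, 3 were called higher with AZD4547 and aFGF than with aFGF and 1 lower. Beside this and each class count below, 26.5% of the brighter genes were called higher and 17% lower. The classes are small, and their shares were not tested. E2F1, an activator of replication genes, had log2 intensities of 5.14 and 5.05 with AZD4547 and aFGF, 4.55 and 4.59 with aFGF, and 4.85 and 4.95 in DMSO. The 3 groups did not overlap, and aFGF was the lowest. It was 1.44-fold higher with AZD4547 than with aFGF (log2 0.53, SE 0.08, adjusted p = 0.000432) and -0.33 with aFGF against DMSO (adjusted p = 0.0149), the second lost without either aFGF array (adjusted p up to 0.136). E2F7, an atypical E2F that represses E2F targets, had 5.67 and 5.60 with AZD4547 and aFGF, 4.96 and 4.95 with aFGF, and 5.39 and 5.42 in DMSO. The groups again did not overlap. It gave the largest change of the 41 in both comparisons, 0.68 against aFGF (SE 0.07, adjusted p = 2.82e-05) and -0.45 with aFGF against DMSO (adjusted p = 0.0012). A second E2F7 probe set was not called in the fit to all probe sets, at 0.11 against aFGF (adjusted p = 0.602) and -0.21 with aFGF against DMSO (adjusted p = 0.301).

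E2F3, an activator like E2F1, moved the other way. It had 6.45 and 6.46 with AZD4547 and aFGF, 6.75 and 6.68 with aFGF, and 6.53 and 6.50 in DMSO, so both aFGF cultures were the highest. It was -0.26 with AZD4547 against aFGF (SE 0.06, adjusted p = 0.0061) and 0.20 with aFGF against DMSO (adjusted p = 0.0392). The first call was lost without replicate 1 of either group (highest adjusted p 0.0972), and the second was kept only without DMSO replicate 1, reaching an adjusted p of 0.303. In the limma fit to all probe sets, no E2F3 probe set was called in aFGF over DMSO. The chosen one gave 0.20 (adjusted p = 0.0644), and the others 0.23 (adjusted p = 0.0501) and -0.004 (adjusted p = 0.987). Each was called lower with AZD4547 and aFGF than with aFGF. E2F2, the third activator, had 6.34 and 6.30 with AZD4547 and aFGF, 6.03 and 5.98 with aFGF, and 6.06 and 6.30 in DMSO, where 1 culture lay near each of the other groups. It was 0.31 against aFGF (adjusted p = 0.0123), a call lost when any 1 AZD4547 or aFGF array was left out. E2F8, a repressor related to E2F7, had 5.37 and 5.31 with AZD4547 and aFGF, 5.17 and 5.16 with aFGF, and 4.95 and 5.12 in DMSO. It was the 1 E2F with the lowest mean in DMSO, and its differences of 0.17 against aFGF (adjusted p = 0.15) and 0.13 for aFGF against DMSO (adjusted p = 0.337) were not called.

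Of the cyclin E genes and CDC25A, which drive CDK2 at the start of S phase, only CDC25A was called. This phosphatase had 6.39 and 6.37 with AZD4547 and aFGF, 6.63 and 6.66 with aFGF, and 6.49 and 6.55 in DMSO, without overlap. It was -0.26 with AZD4547 against aFGF (SE 0.06, adjusted p = 0.00535) and 0.12 with aFGF against DMSO (adjusted p = 0.211). The call was lost without replicate 2 of either group (highest adjusted p 0.0771). CCNE1 differed by 0.06 between AZD4547 and aFGF (adjusted p = 0.551) and CCNE2 by 0.16 (adjusted p = 0.323).

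Of the licensing factors, 2 of 5 were called higher with AZD4547 and aFGF than with aFGF (40%, against 26.5% of the brighter genes). Geminin, GMNN, blocks relicensing by binding CDT1, and had 7.84 and 7.73 with AZD4547 and aFGF, 7.41 and 7.43 with aFGF, and 7.62 and 7.69 in DMSO. The aFGF cultures were again below all others, and the gene was 1.29-fold higher with AZD4547 (log2 0.37, SE 0.06, adjusted p = 0.000537) and -0.24 with aFGF against DMSO (adjusted p = 0.0139). Without aFGF replicate 1 or 2 the adjusted p of the second reached 0.153. CDT1, the MCM loader, was 0.23 higher (adjusted p = 0.0275), which was lost when any 1 array of either group was left out. ORC1 at 0.22 (adjusted p = 0.0568), ORC6 at 0.08 and CDC6 at 0.02 were not called. A second probe set of CDC6, which loads MCM with ORC, was called in a fit to all probe sets, at 0.21 against aFGF (adjusted p = 0.0205) and -0.22 with aFGF against DMSO (adjusted p = 0.0233).

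The replicative helicase is a ring of MCM2 to MCM7, and 4 of the 6 subunits were called higher with AZD4547. MCM3 had 7.79 and 7.83 with AZD4547 and aFGF, 7.47 and 7.37 with aFGF, and 7.79 and 7.81 in DMSO. The AZD4547 and DMSO cultures overlapped and the aFGF cultures lay below both. It was 1.31-fold higher with AZD4547 than with aFGF (log2 0.39, SE 0.06, adjusted p = 0.000256) and -0.38 with aFGF against DMSO (adjusted p = 0.000679). All 4 MCM3 probe sets were called in these directions when every probe set was fitted. MCM2 had 6.44 and 6.43 with AZD4547 and aFGF, 6.06 and 5.98 with aFGF, and 6.20 and 6.40 in DMSO, and was 0.42 against aFGF (adjusted p = 0.00145) and -0.28 for aFGF against DMSO (adjusted p = 0.0254), the second kept only without DMSO replicate 1 (adjusted p up to 0.228). MCM4 had 7.96 and 7.75 with AZD4547 and aFGF, 7.47 and 7.37 with aFGF, and 7.98 and 7.57 in DMSO. Its cultures were spread, and the call of 0.44 (SE 0.11, adjusted p = 0.0117) was lost without AZD4547 replicate 1 or either aFGF array (adjusted p up to 0.185). MCM6 was 0.24 higher (adjusted p = 0.0187), lost without AZD4547 replicate 2 or either aFGF array, and MCM5 was 0.25 (adjusted p = 0.104).

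MCM7, the last subunit of the ring, was not called. It had 9.27 and 9.31 with AZD4547 and aFGF, 9.29 and 9.27 with aFGF, and 9.26 and 9.39 in DMSO, and the groups overlapped. The difference against aFGF was 0.00 (95% interval -0.11 to 0.12), and none of its 4 probe sets was called. The difference between MCM7 and the other subunits was not itself tested.

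Origin firing factors gave 4 of 8 called higher (50%, against 26.5% of the brighter genes). CDC7, the kinase that phosphorylates MCM, had 5.02 and 5.08 with AZD4547 and aFGF, 4.48 and 4.32 with aFGF, and 4.98 and 4.64 in DMSO. It was 1.57-fold higher with AZD4547 than with aFGF (log2 0.65, SE 0.11, adjusted p = 0.000967) and -0.41 with aFGF against DMSO (adjusted p = 0.0263). The second call was kept only without DMSO replicate 2, with adjusted p up to 0.244. DBF4, the regulatory subunit of CDC7, was -0.09 (adjusted p = 0.461), and none of its 7 probe sets was called. CDC45, which joins MCM and GINS in the active helicase, had 5.51 and 5.50 with AZD4547 and aFGF, 5.06 and 5.18 with aFGF, and 5.48 and 5.28 in DMSO. It was 0.38 against aFGF (adjusted p = 0.00487), lost without AZD4547 replicate 1 or aFGF replicate 1. Of the GINS subunits, GINS1 was 0.20 (adjusted p = 0.02) and GINS4 0.28 (adjusted p = 0.0127), both lost without AZD4547 replicate 1 or either aFGF array, GINS1 also without AZD4547 replicate 2. GINS2 was 0.15 (adjusted p = 0.11) and GINS3 -0.15 (adjusted p = 0.319). GINS2 fell with aFGF against DMSO (log2 -0.24, adjusted p = 0.0218), a call lost without either aFGF array. MCM10, which helps the helicase start, was -0.08 (adjusted p = 0.428).

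**Figure D2:**
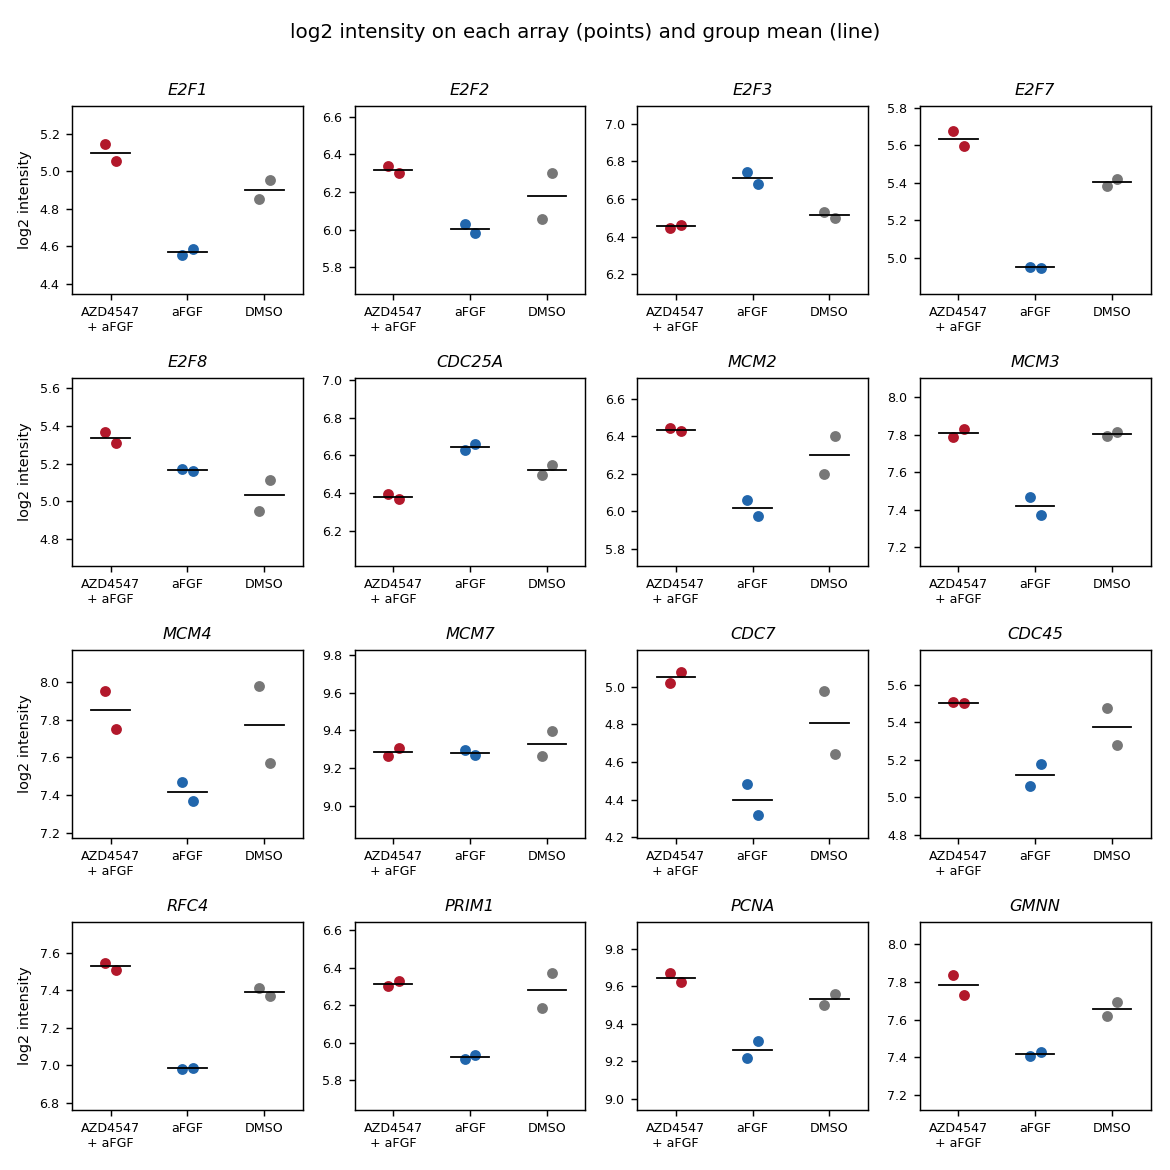
Log2 intensity on each array (points) and group mean (line) for 16 genes, with AZD4547 with aFGF left, aFGF in the middle and DMSO right; each axis spans 1 log2 unit around its gene. E2F3 and CDC25A are highest with aFGF, MCM7 shows overlapping groups, and the other panels, apart from E2F8, are lowest with aFGF.

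Among primase, polymerases, clamp and clamp loader, 4 of 8 were called higher with AZD4547 and 3 lower with aFGF against DMSO. Of the brighter genes, 26.5% and 16.8% were called in these directions. RFC4, a clamp loader subunit, had 7.55 and 7.51 with AZD4547 and aFGF, 6.98 and 6.99 with aFGF, and 7.41 and 7.37 in DMSO, with no overlap. It was 1.46-fold higher with AZD4547 than with aFGF (log2 0.54, SE 0.05, adjusted p = 1.9e-05) and -0.41 with aFGF against DMSO (adjusted p = 0.000366), the smallest adjusted p of the 41 in each of these comparisons. Neither of its other probe sets was called in the fit to all probe sets, at 0.15 (adjusted p = 0.564) and 0.13 (adjusted p = 0.587) against aFGF. Both were near the bottom of the scale, with mean log2 of 0.69 and 0.58 against 7.3 for the chosen probe set, so they say little. PCNA, the sliding clamp, had 9.67 and 9.62 with AZD4547 and aFGF, 9.22 and 9.31 with aFGF, and 9.50 and 9.56 in DMSO. It was 0.38 against aFGF (SE 0.05, adjusted p = 0.000166) and -0.27 for aFGF against DMSO (adjusted p = 0.00376), which leaving out aFGF replicate 1 removed (adjusted p = 0.102). PRIM1, the primase subunit that starts each DNA strand, had 6.30 and 6.33 with AZD4547 and aFGF, 5.91 and 5.94 with aFGF, and 6.19 and 6.37 in DMSO. It was 0.39 (adjusted p = 0.0017) and -0.36 (adjusted p = 0.00563), the second lost without either aFGF array.

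RFC5 was 0.25 higher with AZD4547 than with aFGF (adjusted p = 0.0114), lost when any 1 array of either group was left out. The loader subunits RFC2 and RFC3 differed by 0.09 (adjusted p = 0.387) and -0.03 (adjusted p = 0.736). POLA1, the catalytic subunit of polymerase alpha, was 0.18 (adjusted p = 0.069), and POLE2, a polymerase epsilon subunit, 0.18 (adjusted p = 0.205).

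Genes of strand maturation, chromatin and repair gave 2 of 6 called higher with AZD4547 (33.3%), near the 26.5% of the brighter genes. CHAF1B, a subunit of the chromatin assembly factor that places histones behind the fork, was 0.29 against aFGF (adjusted p = 0.0124) and -0.25 for aFGF against DMSO (adjusted p = 0.0402). The first was lost when any 1 array of either group was left out, and the second was kept only without DMSO replicate 1. UHRF1, which carries DNA methylation through replication, was 0.23 (adjusted p = 0.00681), lost without AZD4547 replicate 2 or either aFGF array. Other UHRF1 probe sets were not called by limma in the fit to all probe sets. They gave 0.04 (adjusted p = 0.779, mean log2 5.64) and -0.21 (adjusted p = 0.409, mean log2 1.74) against aFGF. FEN1, the flap nuclease of lagging strand synthesis, had 7.88 and 7.84 with AZD4547 and aFGF, 7.79 and 7.84 with aFGF, and 8.04 and 7.94 in DMSO. Its AZD4547 and aFGF cultures differed by 0.05 (adjusted p = 0.614), and its differences from DMSO were not called either, at -0.12 for AZD4547 with aFGF (adjusted p = 0.252) and -0.17 for aFGF (adjusted p = 0.0566). LIG1, the ligase that joins fragments, was 0.18 (adjusted p = 0.173), the uracil glycosylase UNG 0.05 (adjusted p = 0.682) and CHAF1A, the partner of CHAF1B, 0.16 (adjusted p = 0.0968).

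**Figure D3:**
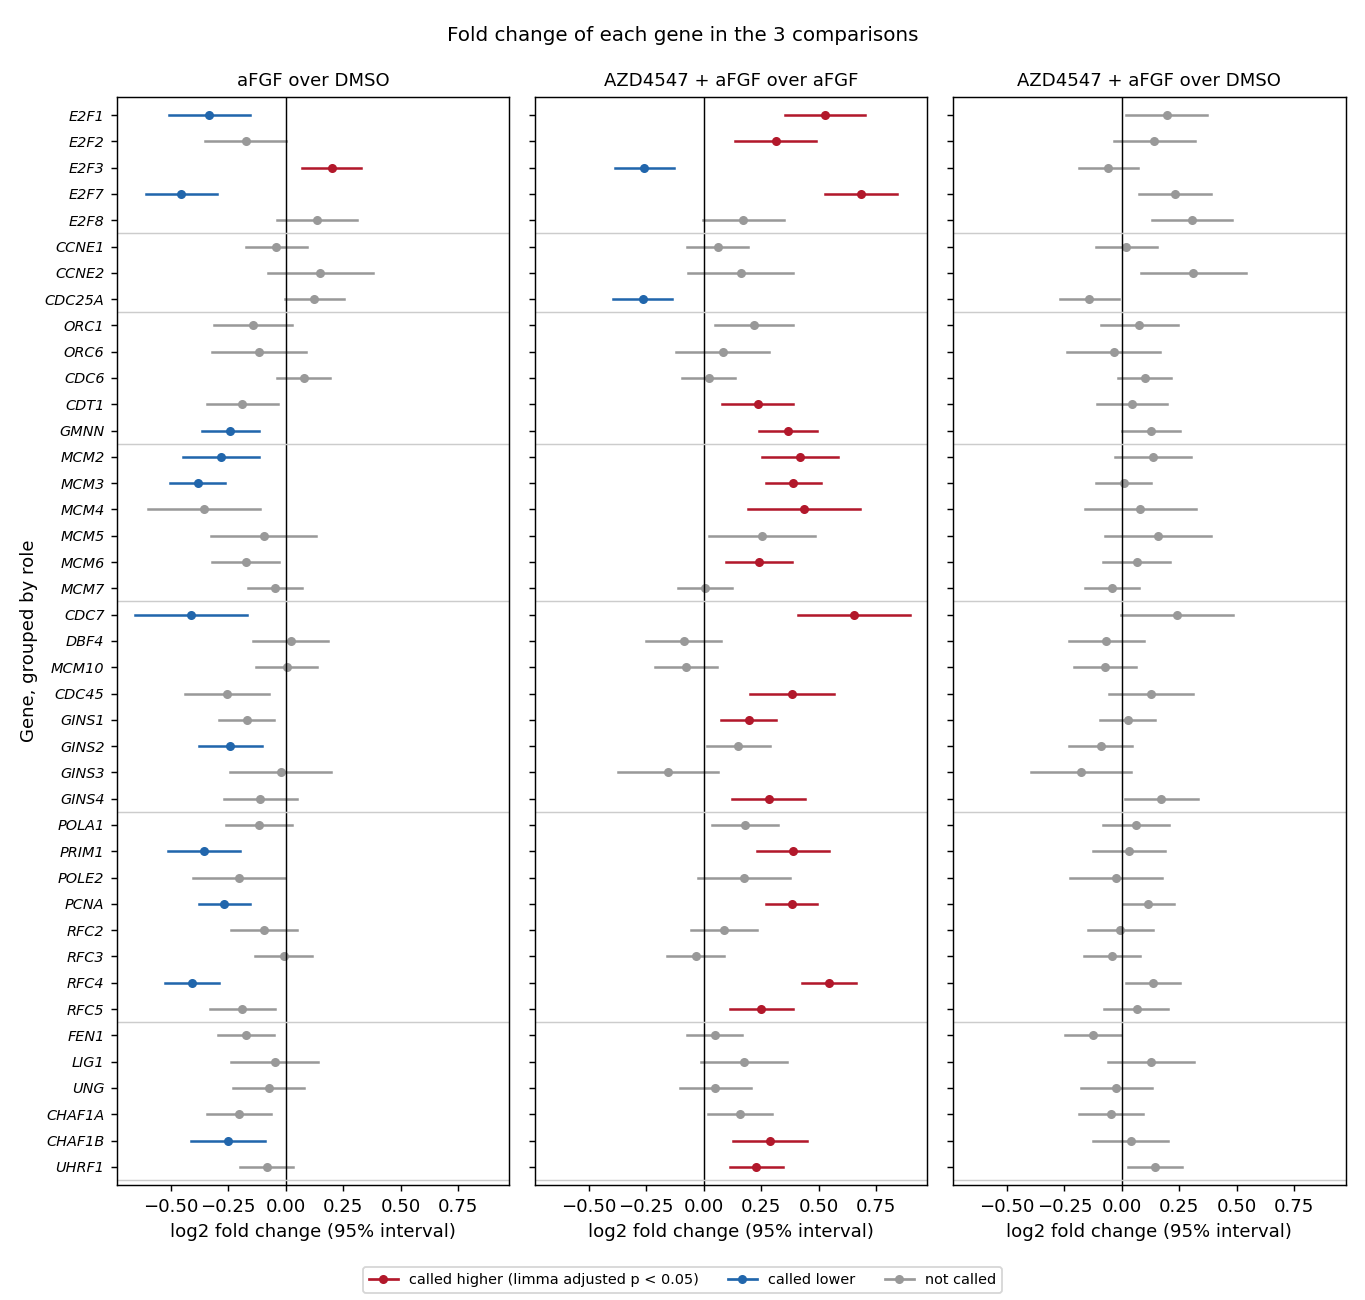
Log2 fold change of the 41 genes with its 95% interval (x axis) in aFGF over DMSO (left), AZD4547 with aFGF over aFGF (middle) and AZD4547 with aFGF over DMSO (right), red where called higher, blue where called lower and grey where not called. The middle panel has 19 red and 2 blue genes, the left panel 1 red and 11 blue, and the right panel none.

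The comparison of AZD4547 with aFGF against DMSO asks whether inhibited cells differ from unstimulated ones. None of the 41 genes was called by limma, where 4.68% of all genes and 8.25% of the brighter genes were (2.28% higher and 2.41% lower, and 3.97% and 4.28% of the brighter ones), and 10 of the 41 had an unadjusted p under 0.05, as 18.4% of all genes did. The median change was 0.06, against -0.01 over all genes, with both AZD4547 cultures above both DMSO cultures on 17 genes and below them on 5, where 21.1% and 23.7% of all genes did so. The values ran between -0.18 for GINS3 and 0.31 for CCNE2. The 95% interval lay within 0.5 of 0 for 40 of the 41 genes, so a larger difference lay inside the interval of CCNE2 alone (0.08 to 0.54). That does not show the groups to be alike. E2F8 came closest, at 0.31 (adjusted p = 0.0522), with both AZD4547 cultures above both DMSO cultures. In a fit to every probe set 1 E2F8 probe set was called, at 0.38 (adjusted p = 0.0382). E2F7 was 0.23 (adjusted p = 0.0927) and E2F1 0.20 (adjusted p = 0.211), and MCM3 was 0.01 (adjusted p = 0.966).

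The 41 genes carried 107 probe sets, and 30 had more than 1. With every probe set fitted, 35 were called higher and 5 lower with AZD4547 than with aFGF, where 11.8% and 8.84% of all probe sets were. In aFGF over DMSO 19 were called lower and 0 higher, against 6.43% and 5.01% of all probe sets. In AZD4547 with aFGF over DMSO 1 was called higher and 0 lower, against 1.1% and 1.39%. No gene had called probe sets in both directions in any comparison. In aFGF over DMSO, 5 genes were called lower in this fit only by a probe set not chosen: CDC6, CDC45, FEN1, MCM4 and RFC5. For 5 of the 41 genes the probe set ends in _x_at, which marks possible cross-matching to unrelated transcripts, and for 7 in _s_at, which marks probes shared by several transcripts.

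Other lists of cell cycle genes are given as counts, beside the 15.6% of all genes called higher and 10.1% called lower with AZD4547 than with aFGF. Of the brighter genes, 26.5% were called higher and 17% lower. Of 33 other origin and fork factors, 14 were called higher and 2 lower with AZD4547 than with aFGF. POLE3, a histone-fold subunit of polymerase epsilon, fell (log2 -0.56, adjusted p = 2.39e-05), while POLD3, a polymerase delta subunit, was 0.52 (adjusted p = 0.000316) and the large clamp loader subunit RFC1 0.48 (adjusted p = 0.000133). POLE3 was also lower (log2 -0.38, adjusted p = 0.00433) and RFC1 higher (0.25, adjusted p = 0.0425) with AZD4547 and aFGF than in DMSO. Of 11 measured genes of nucleotide supply 5 were called higher and 0 lower than with aFGF, among them TK1, a thymidine kinase, at 0.61 and SAMHD1, which breaks down dNTPs, at 0.56. Of 15 pocket proteins, MuvB subunits and E2F partners, 6 were called higher and 2 lower. RBL2, the pocket protein p130 of quiescent cells, was 0.70, FOXM1, a mitotic transcription factor, 0.50, and the repressor E2F6 -0.54.

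Of 19 cyclins, kinases and inhibitors of G1/S, 8 were called higher and 3 lower than with aFGF. The CDK inhibitors split: CDKN1B was 1.03 and CDKN2C 1.01, and CDKN1A was -0.89. Of 24 mitosis genes, 22 were called higher and 0 lower, with a median of 0.47. TOP2A, the topoisomerase that untangles chromosomes, was 0.91, the kinesin KIF20A 0.90 and the phosphatase CDC25C 0.74. In aFGF over DMSO 15 of the 24 were called lower and 0 higher, where 9.72% and 5.92% of all genes were. In AZD4547 with aFGF over DMSO 10 were called higher and 0 lower, where 2.28% and 2.41% of all genes were. The lists were not tested against each other, and their difference in share was not tested.

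**Figure D4:**
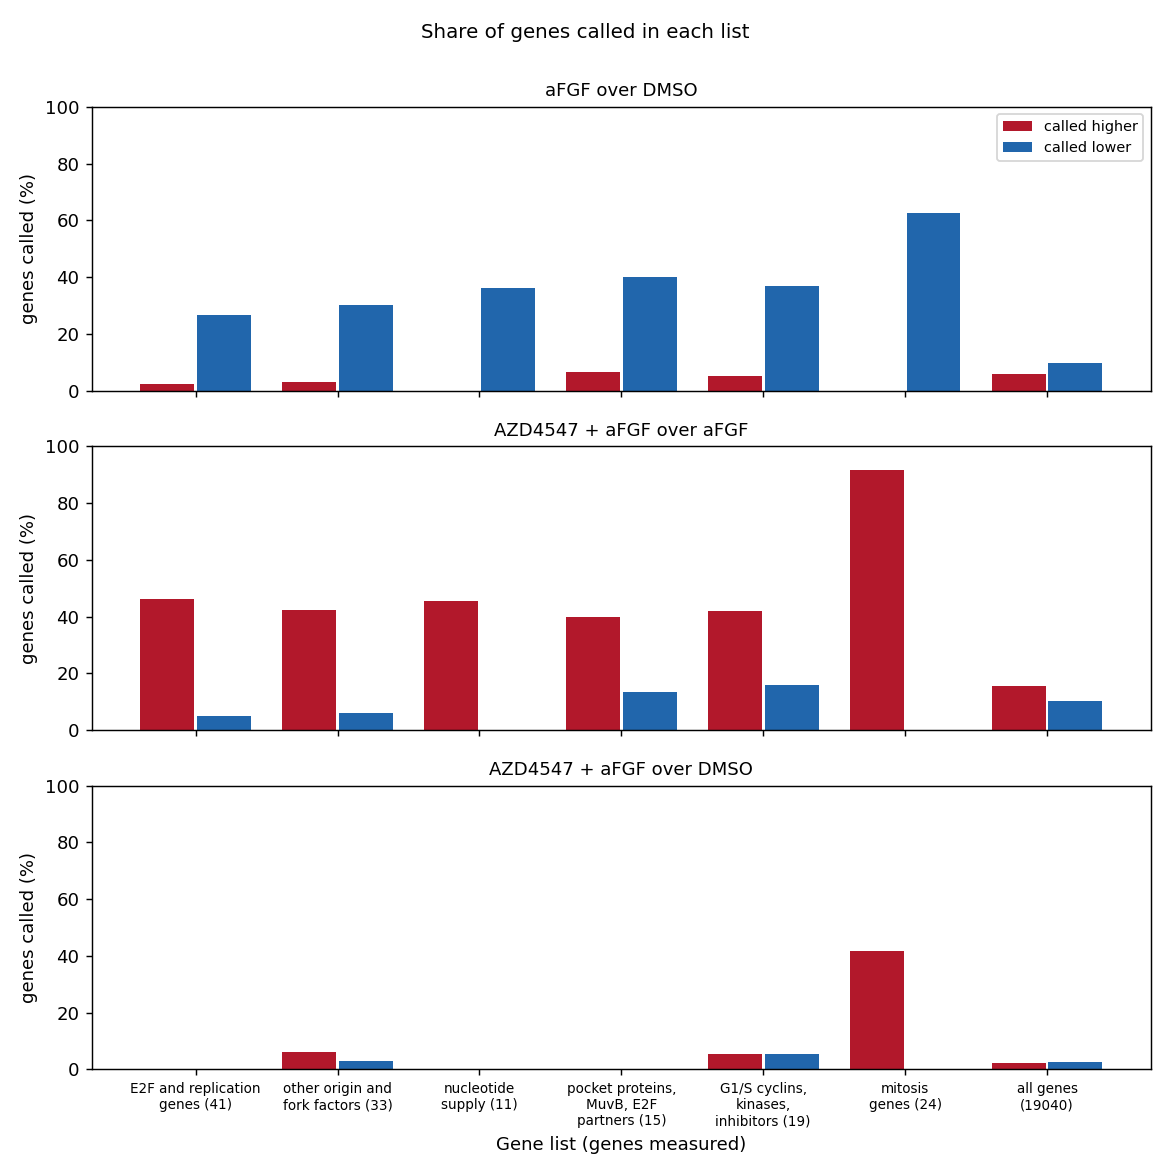
Share of genes called higher (red) and lower (blue) in each list (y axis, percent; x axis, list with its number of genes), for aFGF over DMSO (top), AZD4547 with aFGF over aFGF (middle) and AZD4547 with aFGF over DMSO (bottom). In the middle panel 46.3% of the 41 genes and 91.7% of the mitosis genes were called higher, against 15.6% of all genes. The share of the brighter genes, 26.5%, is not drawn.

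The authors' deposited table holds its own ratio and p-value over DMSO for each probe set. In the authors' deposited table, the ratio of AZD4547 with aFGF over DMSO ran between 0.884 for GINS3 and 1.235 for CCNE2 on the probe sets used here, and 4 of the 41 had a p-value under 0.05, all with a ratio above 1 (E2F7, ORC1, RFC4 and UHRF1). Of all 49293 probe sets of the authors' deposited table, 8.73% had such a p-value in that comparison, 4.26% with a ratio above 1 and 4.47% below. For aFGF over DMSO, the authors' deposited table gives ratios between 0.731 for E2F7 and 1.149 for E2F3, and a p-value under 0.05 for 12 of the 41, with 11 ratios below 1 and 1 above. Of all its probe sets 13.8% had such a p-value, 6.41% with a ratio above 1 and 7.38% below. No source used here says whether they were adjusted.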

How the data were processed

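Total RNA of 6 cultures was measured on Affymetrix arrays. Per the labels' protocols, biotin-labelled cRNA came from 500 ng of RNA. RMA (background correction, quantile normalization and probe summary) is named in the submitters' processing notes. No source used here gives the array type or says how values became linear. The deposited intensity values were linear (0.75 to 6344.2), where log2 values had been assumed, and their log2 was taken with no constant. The authors' deposited table also gives a ratio (fold) over DMSO and a p-value per probe set, with its test unstated in the labels used here.

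Of 49293 probe sets 47340 carried 1 symbol, and symbols were updated through Entrez identifiers (5313 changed, none of the 41 genes). Each gene took its probe set with the highest mean. Group means of all 6 arrays were fitted in R 4.3.3 (limma 3.58.1, eBayes with trend), two-sided, adjusted by Benjamini-Hochberg over 19040 genes and called under 0.05. The fit was tested on simulated data. Alternatives were no trend, every probe set, no _x_at or _s_at probe sets, no dim genes, median centring, array weights, a replicate block, the second deposited table, a constant of 4 before log2, and leaving out each array. The members, lists and tests were chosen with earlier results of these data known. Values in every array are given for the E2F factors, the 12 genes with the largest called change against aFGF, genes called against the main direction, the 4 brightest genes and E2F8, and up to 3 called genes are named from each other list, of which 1 is not reported here.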

Additional observations from a re-analysis of the deposited data

How the results depend on the processing

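Directions of the 3 comparisons' medians held under every alternative, and no called value reversed, while counts of calls changed. For aFGF over DMSO, 2979 genes and 12 of the 41 were called. No intensity trend gave 1489 and 3, every probe set 5640 probe sets, without dim genes 18 of the 41, and leaving out single arrays 1147 to 3448 genes and 3 to 16 of the 41. For AZD4547 with aFGF over aFGF, 4894 genes and 21 of the 41 were called. No trend gave 3706 and 13, every probe set 10178 probe sets, and leaving out single arrays 3046 to 5667 genes and 10 to 24 of the 41. For AZD4547 with aFGF over DMSO, 892 genes and 0 of the 41 were called. No trend gave 10 genes, without dim genes 1 of the 41, and leaving out single arrays 29 to 1556 genes and 0 to 2 of the 41. With an array left out, the lone culture of its group was assumed to vary like the other groups. The cause was not tested. Same-numbered arrays showed little shared deviation (correlations of -0.05, 0.14 and 0.05). Such correlations cannot settle whether the numbers pair the cultures, and the main fit treated the cultures as unpaired. With the replicate block, 3302, 5161 and 1201 genes and 14, 21 and 1 of the 41 were called in these comparisons. The second deposited table gave identical values. No detection calls were in the tables used, and the 2 arrays a group limit the precision.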
